A study of Mus musculus with 54 samples.

Results

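The genes described here were the 144, of 18941 genes tested in the mouse suprachiasmatic nucleus (SCN), whose level was higher in all 3 replicates of ZT18 than in all 3 of ZT14, and higher in all 3 replicates of ZT2 than in all 3 of ZT22. ZT is zeitgeber time, the number of hours after lights on in a 12:12 light/dark cycle, so that ZT2, ZT6 and ZT10 fall in the light and ZT14, ZT18 and ZT22 in the dark. The SCN of male C3H/HeH mice, 10 to 12 weeks old and housed at 150 lux, was isolated by laser-capture microdissection at these 6 timepoints, and tissue from 5 animals was pooled for each of the 3 replicates (A, B and C) of a timepoint. No group was treated or mutant, so the groups differ by time of day alone as far as the labels say. Levels are CPM (counts of a gene scaled to a common total per library, with the TMM normalization of edgeR), and a gene was tested where at least 1 read was counted in more than 6 of the 18 replicates. Of 150 genes that met the 2 conditions, 6 belong to families left out by their symbols (ribosomal, proteasome, respiratory chain, translation initiation and SR splicing proteins), namely *Rpl13a*, *Rps27rt*, *Psma3*, *Mrpl50*, *Eif2s3x* and *Rps24-ps3*. The genes were chosen by their levels at ZT2, ZT14, ZT18 and ZT22, so the differences between ZT18 and ZT14 and between ZT2 and ZT22 are given as a description with no test. Among all tested genes, ZT18 was above ZT14 without overlap in 10.2%, and ZT2 above ZT22 in 5.64%.

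The SCN is the principal circadian pacemaker of mammals, a pair of small hypothalamic nuclei in which neurons run transcriptional clocks and are kept in phase with one another by neuropeptides and with the day by light signals from the retina. Light early in the night delays this clock and light late in the night advances it, which is why levels at ZT14 and ZT22 are of interest. A gene that is low at both times would have 2 troughs a day, in contrast to the single peak and trough of the clock genes.

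Each replicate had between 15412981 and 35820945 reads counted on genes. Depth moved with the rule, as the totals of the 3 ZT14 replicates were all above those of ZT18 and the totals of ZT22 all above those of ZT2. The timepoints also fall into 3 clusters in the PCA of the study, 1 of ZT14 and ZT18, 1 of ZT22 and ZT2 and 1 of ZT6 and ZT10, and its legend names sequencing batch beside timepoint, so that in differences between these clusters time and batch cannot be told apart. The 2 differences of the rule lie inside clusters. In pooled tissue, fewer cells of a type and less RNA per cell cannot be told apart. All 10 SCN neuron markers examined were detected in every replicate, the lowest value being 1.28 CPM for *Prok2*. The marker lists used for astrocytes, oligodendrocytes, microglia, endothelium, ependyma, choroid plexus, blood, neighbouring hypothalamic nuclei and telencephalic neurons included none of the 144 genes. On these lists *Th*, *Hbb-bs* and *Hbb-bt* were not tested. The lists do not hold every gene of a cell type, and *Fabp7* and *Slc6a3*, described below, are on none of them. As the 144 genes are 0.760% of all tested genes, little can be read from their absence in short lists. The summed CPM of no such list was separated in the direction of the rule at both pairs of timepoints. Those of neighbouring hypothalamic neurons (199 to 227 at ZT14 and 155 to 188 at ZT18), telencephalic neurons (99.8 to 212 and 25.3 to 63.8) and microglia (249 to 298 and 176 to 247) were separated between ZT14 and ZT18 in the opposite direction. The share of reads on ribosomal protein genes was also higher at ZT18 (2.36% to 3.37%) than at ZT14 (1.77% to 2.18%), while at ZT2 (2.88% to 3.39%) and ZT22 (2.68% to 3.07%) it overlapped.

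**Figure D1:**
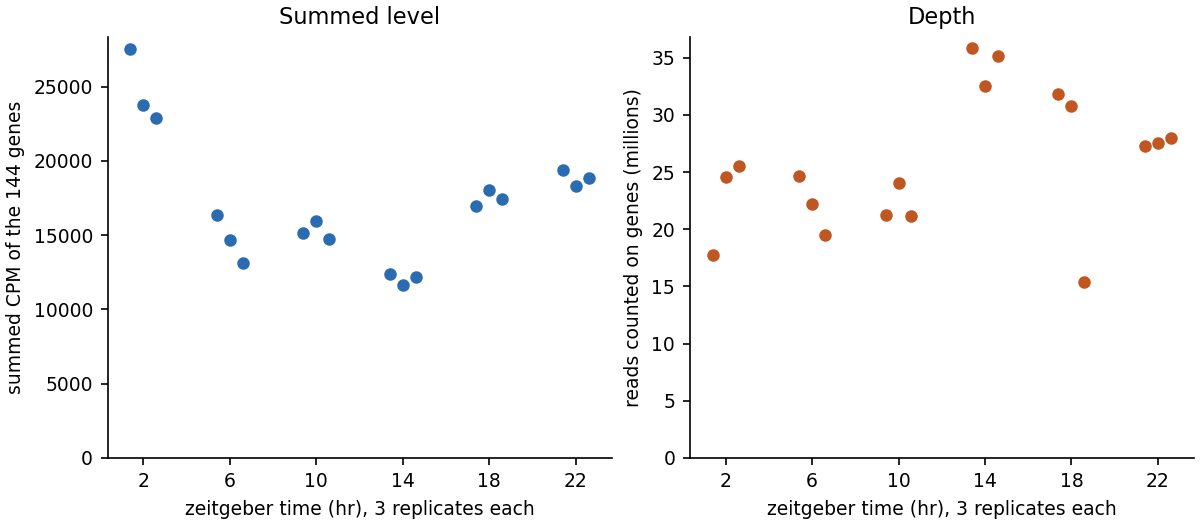
Summed CPM of the 144 genes (left) and reads counted on genes (right, in the unit on the axis) against zeitgeber time in hours, with 1 point for each of the 3 replicates per timepoint. The sum was lowest at ZT14 (11663 to 12403) and highest at ZT2 (22887 to 27570), and the ZT14 replicates had more reads than any ZT18 replicate.

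Few of these genes had their 2 lowest means at ZT14 and ZT22. This was so for 32 of the 144, which include *Tceal9*, *Atp6v1g1*, *Sfrp2* and *Pgf*. The lowest mean was that of ZT14 in 63 genes, ZT6 in 30, ZT10 in 27 and ZT22 in 24, while the highest was that of ZT2 in 77, ZT6 in 29, ZT18 in 29 and ZT10 in 9. ZT14 was below ZT10 and ZT22 below ZT18 in the means of 61 genes, and in 21 of these all the neighbouring replicates were separated. ZT22 lay above ZT18 in 53 genes, so that for these the mean of ZT22 was not below both of its neighbours. ZT10 and ZT14, and ZT18 and ZT22, lie in different clusters, so time and batch cannot be told apart in these orders of the means. The same limit holds for the courses of single genes given below. In these means the label of a double trough held for a minority, and the genes are called here by their rule.

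**Figure D2:**
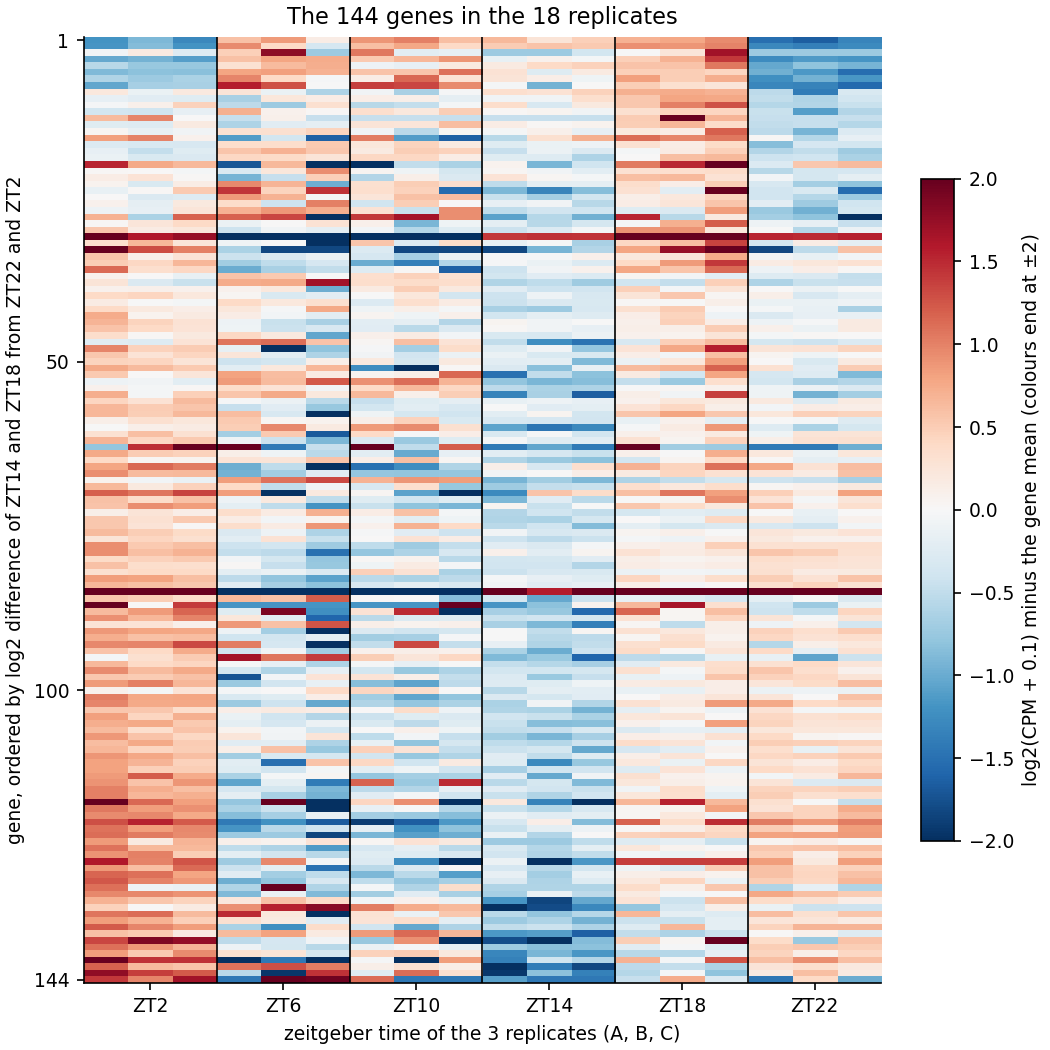
The 144 genes (rows) in the 18 replicates (columns, replicates A, B and C of each timepoint), coloured by log2(CPM + 0.1) minus the mean of the gene, with colours ending at ±2. ZT2 is red and ZT14 blue in most rows, while ZT6, ZT10 and ZT22 differ from row to row.

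The 2 differences were modest. Over the 121 genes with a mean of at least 5 CPM, the log2 ratio of ZT18 to ZT14 had a median of 0.57 (from 0.19 to 1.67) and that of ZT2 to ZT22 a median of 0.39 (from 0.13 to 0.79). The log2 ratio of ZT18 to ZT14 was 1 or more in 12 of them, and that of ZT2 to ZT22 in 0. The levels ranged widely, with a median of 32.1 CPM over the 144 genes (10.5 CPM over all tested genes), 35 genes at 100 CPM or more and 12 under 1 CPM. In 121 genes every replicate had at least 10 counts, and 14 had no read in at least 1 replicate.

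A single neuropeptide was among them. *Nms* (chr1:38939149-38950276, GRCm38, plus strand) encodes neuromedin S, a peptide made by a large subset of SCN neurons that takes part in keeping them in phase. Its level was 102, 106 and 73.0 CPM at ZT14 and 162, 147 and 167 CPM at ZT18, then 228, 244 and 189 CPM at ZT22 and 339, 326 and 257 CPM at ZT2. In the light it reached 351, 394 and 257 CPM at ZT6 and 411, 497 and 359 CPM at ZT10. In the means *Nms* therefore had 1 trough, at ZT14, and its highest level, 422 ± 69.7 CPM (SD, n = 3), at ZT10. The replicates of ZT2 and ZT6 overlapped. The steps from ZT10 to ZT14, from ZT18 to ZT22 and from ZT2 to ZT6 lie between clusters, where time and batch cannot be told apart. A second table of the authors gave 39234 reads for *Nms* at ZT6 and ZT10 together, where the count table has 49362. *Nms* was 1 of 17 SCN peptide and receptor genes examined. Of these, 4 had ZT18 above ZT14 and 2 had ZT2 above ZT22 without overlap (10.2% and 5.64% of all tested genes). *Nms* did not meet the rule under every scaling of the libraries described at the end.

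*Eef1a1* and *Zwint* were the most abundant of the genes. *Eef1a1* (chr9:78478449-78489151, minus strand), the elongation factor that brings aminoacyl-tRNA to the ribosome, was at 1936, 1771 and 1783 CPM at ZT14 and 2710, 3115 and 2659 CPM at ZT18, and at 4427, 4584 and 4430 CPM at ZT22 and 6796, 5763 and 5043 CPM at ZT2. *Zwint* (chr10:72654845-72674964, plus strand), which codes for a kinetochore protein that is also abundant in neurons, had 1979 ± 149 CPM at ZT14, 3037 ± 558 at ZT18, 3592 ± 241 at ZT22 and 4821 ± 651 at ZT2 (SD, n = 3). The means of both rose in 3 steps from ZT14 to ZT2 and were lower at ZT6, where *Eef1a1* had 2527 ± 411 and *Zwint* 1876 ± 506 CPM. The steps from ZT18 to ZT22 and from ZT2 to ZT6 lie between clusters, where time and batch cannot be told apart. *Eef1a1* has processed copies elsewhere in the genome and shares 108 exonic bases with *Gm26377* on its own strand, so its reads could in part be those of a copy.

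Among the other genes of high level the course differed from gene to gene. *Atp6v1g1*, a subunit of the vacuolar proton pump, had both troughs: 272, 250.7 and 255 CPM at ZT14 and 368, 362 and 320 CPM at ZT22, against 387, 401 and 414 CPM at ZT18 and 416, 380 and 397 CPM at ZT2. It was also separated from ZT14 at ZT10 (515, 615 and 521 CPM). *Tceal9*, of the family of transcription elongation factor A-like proteins, had its lowest means at ZT14 (298 ± 27.7 CPM, n = 3) and ZT22 (375 ± 34.2), but ZT18, with 382 ± 35.5 CPM, overlapped ZT22. *Fxyd6*, a regulator of the sodium-potassium pump, had 345 ± 38.3 CPM at ZT14 and 385 ± 59.8 at ZT22, and 512 ± 90.7 at ZT18 and 530 ± 42.6 at ZT2. *Sfxn5*, a mitochondrial carrier, was lowest at ZT22 (352, 191 and 410 CPM) and highest at ZT18 (827, 842 and 818 CPM). *Actr10*, a subunit of dynactin, and *Pcnp*, a nuclear protein, were highest at ZT2, with 567 ± 27.5 and 492 ± 46.6 CPM, and *Pcnp* shares 238 exonic bases with *Zbtb11* on the other strand.

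The genes with the largest differences in both steps, among those at 5 CPM or more, were of low to middle level. *Pfkfb4*, which sets the level of a metabolite that drives glycolysis, had 22.6, 14.1 and 20.4 CPM at ZT14, 34.8 ± 8.56 at ZT18, 12.2 ± 0.682 at ZT22 and 20.3 ± 3.64 at ZT2 (SD, n = 3). *Sfrp2*, a secreted Wnt antagonist, had its trough at ZT14 (6.36, 7.00 and 3.85 CPM) and its peak at ZT6 (37.4, 24.9 and 31.3 CPM), and its ZT2 mean was 1.72 times that of ZT22. *Pgf*, a growth factor of the VEGF family, was separated at all 4 neighbours of its troughs, with 9.09 ± 1.11 CPM at ZT14 and 7.38 ± 1.33 at ZT22 against 14.6 ± 0.972 at ZT10, 14.1 ± 1.79 at ZT18 and 11.02 ± 1.75 at ZT2. *Acot2*, a mitochondrial acyl-CoA thioesterase, had 52.8 CPM in ZT18 replicate C, against 24.9 and 23.9 CPM in A and B. Other genes of this group were *Pipox*, *Gm16008*, *Rad51c*, *Tmem41a* and *Pramef8*, in which the smaller of the 2 log2 ratios lay between 0.56 (*Pramef8*) and 0.71 (*Pipox*). Replicate C of ZT18, the library with the fewest reads, gave the highest ZT18 value in 75 of the 144 genes, and replicate A of ZT2, the ZT2 library with the fewest reads, the highest ZT2 value in 86. The same counts over all tested genes are not given here. Both libraries also had the highest value of their timepoint in the measure of low against high GC content described below. It was -0.15 in ZT18 replicate C (-0.42 in A and -0.22 in B) and 1.62 in ZT2 replicate A (1.16 in B and 0.78 in C). Whether depth, GC content or another trait of these libraries has a part in their high values was not tested.

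**Figure D3:**
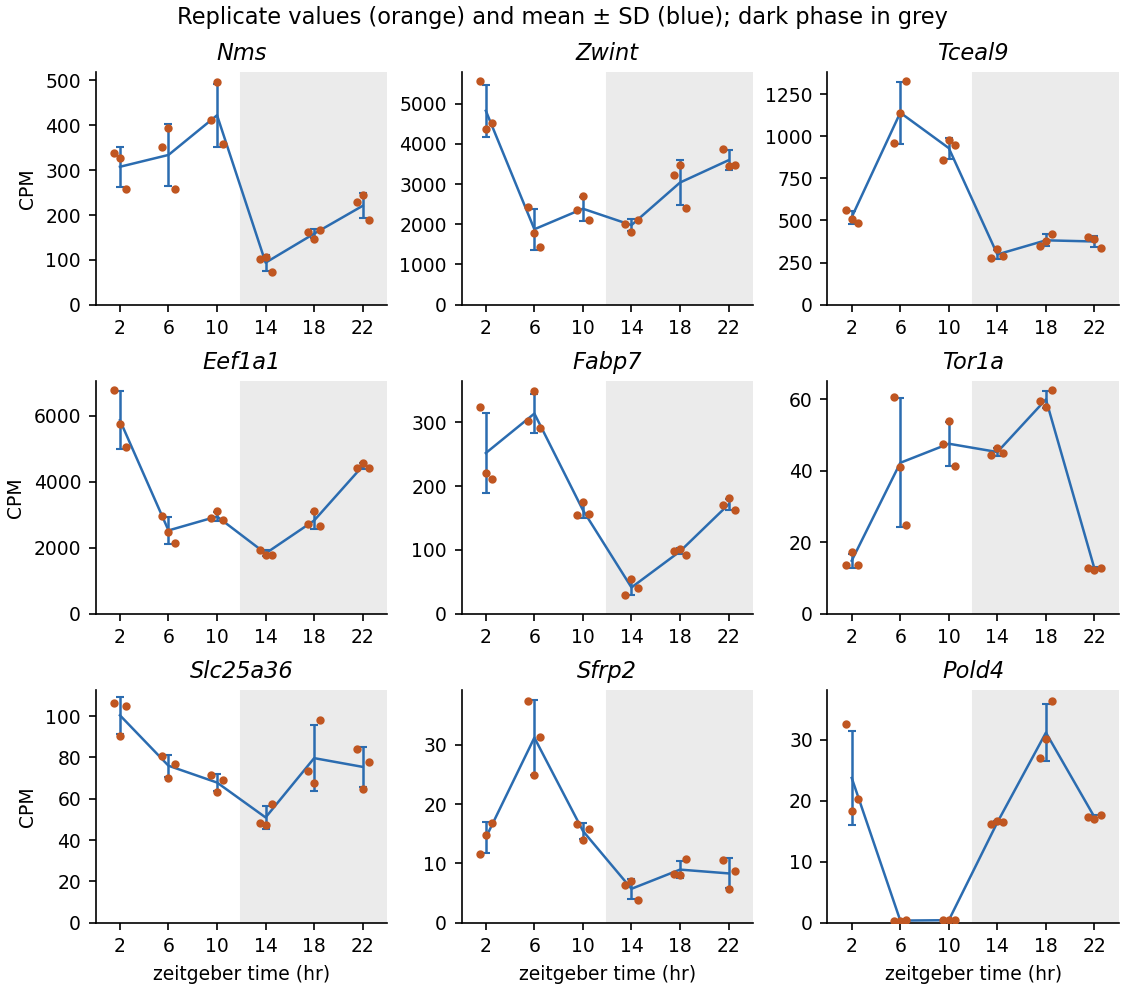
CPM against zeitgeber time in hours for 9 of the genes, with the 3 replicates as orange points, mean ± SD in blue and the dark phase in grey. Every panel has ZT18 above ZT14 and ZT2 above ZT22, as the rule requires, and the other timepoints set the panels apart, from the peak of *Tceal9* at ZT6 to the very low level of *Pold4* at ZT6 and ZT10.

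No functional group made up a large part of the 144 genes, of which 116 were in none of the lists examined. Zinc finger factors gave 5 of 452 tested (*Zfp286*, *Zfp92*, *Zfp597*, *Zfp518a* and *Zbtb33*), genes of DNA repair and replication 4 of 90 (*Xrcc2*, *Pold4*, *Rad51c* and *Fanci*), ubiquitin enzymes 3 of 292 (*Rnf121*, *Fbxl4* and *Trim56*) and cytoskeletal genes 3 of 121 (*Capza1*, *Tpm4* and *Dynlt1c*), where all tested genes gave 0.760%. *Rad51c* and *Xrcc2* both act in homologous recombination. *Rad51c* had 5.86 ± 1.03 CPM at ZT14 and 11.5 ± 2.42 at ZT18, and 6.47 ± 0.555 at ZT22 and 10.2 ± 3.31 at ZT2 (SD, n = 3). *Zfp92* had 44.6 ± 10.9 CPM at ZT18 and 33.9 ± 4.81 CPM at ZT2, against 20.1 to 26.6 CPM at ZT14 and 18.3 to 27.1 CPM at ZT22. Mitochondrial carriers and assembly factors gave 2 of 110, *Slc25a36* (a pyrimidine nucleotide carrier, with 51.0 ± 5.55, 79.6 ± 16.1, 75.4 ± 9.82 and 100.4 ± 8.86 CPM at ZT14, ZT18, ZT22 and ZT2) and *Timmdc1*, an assembly factor of complex I.

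Of the genes that define the clock, 0 of 23 were members. Of the 23, 13 had ZT2 above ZT22 without overlap (5.64% of all tested genes), but none had ZT18 above ZT14 (10.2%). The 24 light-response genes, the 222 genes of channels, receptors and synapse and the 166 kinases and phosphatases of the MAP kinase, PKA and PKC pathways gave 0 members each. As members are 0.760% of all tested genes, a count of 0 in lists of this size says little. The opposite pattern, ZT14 above ZT18 and ZT22 above ZT2 (11.6% and 5.98% of all tested genes), was met by 204 genes outside the dropped families (1.08% of all tested genes), among them 10 of the 222 genes of channels, receptors and synapse, 4 of the 166 kinases and phosphatases and 2 of the 24 light-response genes. In the opposite direction the means of the 2 timepoints were the highest in 73 of 204 genes, again a minority and with the same limit of batch.

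ZT6 and ZT10, which the rule did not use, were compared with each other and with the other timepoints by edgeR's quasi-likelihood test over all 18941 genes, with the Benjamini–Hochberg adjustment (q) and a threshold of 0.05, and the p-values measure the spread between pools of animals. Between ZT6 and ZT10, in the middle and at the end of the day, 0 of the 144 genes passed (0.0475% of all tested genes did, 0.0211% higher and 0.0264% lower at ZT6), while 15 had an unadjusted p under 0.05 (10.8% of all tested genes). DESeq2 called 4 of them higher and 1 lower at ZT6, and 0.47% and 1.01% of all genes to which it gave an adjusted p. Their median log2 difference was 0.02, against -0.03 over all tested genes. ZT6 was above ZT10 without overlap in 10 of them (5.5% of all tested genes) and ZT10 above ZT6 in 3 (6.87%). *Sfrp2* was one of the 10, with 31.2 ± 6.28 CPM at ZT6 and 15.5 ± 1.38 at ZT10, as was *Fabp7* with 314 ± 30.4 and 162 ± 11.6.

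The level at ZT6 and ZT10 was also set against the mean of the other 4 timepoints. This comparison and the next lie between the clusters of timepoints, where time and batch cannot be told apart. Both also include the 12 replicates from which the genes were chosen, and as the rule asks for groups that do not overlap it favours genes of small spread, so the q values here are too small by an unknown amount. The level at ZT6 and ZT10 was higher for 31 of the 144, or 21.5%, near the 20.4% of all tested genes. It was lower for 53, or 36.8% (21.1% of all tested genes), and 60 did not pass. The median log2 difference was -0.19, against -0.10 over all tested genes. Of the 32 genes with their lowest means at ZT14 and ZT22, 18 were higher at ZT6 and ZT10 and 0 lower, and this follows in part from the way they were picked. *Tceal9* reached 957, 1135 and 1327 CPM at ZT6 and 861, 980 and 948 CPM at ZT10, above every replicate of the other timepoints (log2 difference 1.41 ± 0.09 SE, q = 1.46e-09). *Gkap1*, an anchoring protein for cyclic GMP-dependent kinase, was also higher (1.36 ± 0.15 SE, q = 1.72e-06), with 39.7 ± 8.65 and 39.6 ± 6.08 CPM at ZT6 and ZT10 and between 11.1 and 26.4 CPM in the replicates of the other timepoints. *0610040B10Rik*, with 23.9 ± 7.21 CPM at ZT6 and 2.51 ± 0.885 at ZT14, and *Tmem41a*, with 43.3 ± 20.8 CPM at ZT6 and 7.62 ± 0.708 at ZT22, were the largest of this kind among genes of at least 5 CPM, at log2 differences of 1.69 each (q = 2.71e-06 and 1.74e-06).

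On the lower side, *Pramef8* had 55.7 ± 4.34 CPM at ZT2 but 0, 0.0474 and 0.0473 CPM at ZT6 and 0 in all 3 replicates of ZT10, and *Pold4*, a subunit of DNA polymerase delta, had 31.2 ± 4.72 CPM at ZT18 but 0.369 ± 0.0617 at ZT6 and 0.430 ± 0.0448 at ZT10. The second table of the authors gave nearly as few reads for both genes at these timepoints (2 for *Pramef8* and 43 for *Pold4* in all 6 replicates, where the count table has 2 and 52). *Pramef8* belongs to a family of close copies and *Pold4* shares 286 exonic bases with *AC109138.7* on its own strand, so the assignment of their reads is uncertain. The q values that follow are too small by an unknown amount, as said above, since the comparison includes the replicates that chose the genes. *Slc6a3*, the dopamine transporter, fell by 2.28 ± 0.22 (SE) on the log2 scale (q = 2.76e-07), to 4.29, 4.97 and 3.60 CPM at ZT6 and 3.06, 3.65 and 5.19 CPM at ZT10, from 28.5, 34.2 and 27.3 CPM at ZT2. *Xrcc2* had 7.34 ± 3.79 and 7.38 ± 2.50 CPM at ZT6 and ZT10 and 31.0 ± 3.86 CPM at ZT2 (-1.68 ± 0.24 SE, q = 1.84e-05). *Zwint* (-0.59 ± 0.12 SE, q = 0.000637) and *Eef1a1* (-0.32 ± 0.09 SE, q = 0.00935) were lower by smaller amounts, and *Eef1a1* lost its call on the reads recovered from the second table. *Nms* went the other way and was higher at ZT6 and ZT10 (1.08 ± 0.11 SE, q = 8.97e-07). The summed CPM of the 10 SCN neuron markers, of which *Nms* is 1, was likewise higher at ZT6 (5599 to 6075) and ZT10 (4616 to 5398) than at ZT14 (1896 to 2637), ZT18 (2527 to 2833) and ZT22 (2650 to 3222), and overlapped ZT2 (3175 to 4839), and the part of SCN neuron content in the level of *Nms* was not tested.

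The difference between the mean of ZT14 and ZT18 and that of ZT22 and ZT2 rests wholly on the replicates that chose the genes and is given as a description, with no test. The fit over all genes put 57 of the 144 genes, or 39.6%, lower at ZT14 and ZT18 (13.5% of all tested genes) and 16, or 11.1%, higher (20.1% of all tested genes), from which nothing is read about the genes. The median log2 difference was -0.44, against 0.00 over all tested genes. The log2 difference was -1.17 for *Eef1a1*, -0.76 for *Zwint*, -1.09 for *Nms* and -1.003 for *Dnajc12*, a co-chaperone of aromatic amino acid hydroxylases. *Fabp7*, a fatty acid-binding protein of astrocytes and radial glia, had the largest negative value among genes of at least 5 CPM, -1.71, with 29.4, 53.9 and 40.4 CPM at ZT14, 98.6, 102 and 92.7 at ZT18, 171, 181 and 162 at ZT22 and 324, 221 and 211 at ZT2. The astrocyte markers moved in the same sense here, with a summed CPM of 4123 to 5580 at ZT14, 5324 to 5611 at ZT18, 6422 to 7559 at ZT22 and 7065 to 8632 at ZT2, and 6 of the 8 were lower at ZT14 and ZT18. At ZT6 the markers were at 2952 to 3916 CPM in sum and *Fabp7* at its highest mean, 314 ± 30.4 CPM. None of the 8 markers was at 0 in any replicate, and the part of astrocyte content in the level of *Fabp7* was not tested. *Dynlt1c*, a dynein light chain with near-identical copies beside it, between which reads may be split, had a log2 difference of -1.34.

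The 3 largest positive differences among genes of at least 5 CPM belonged to *Tor1a*, *Abhd10* and *Wdr34*. *Tor1a*, the torsin ATPase of the endoplasmic reticulum, was at 44.4, 46.5 and 44.9 CPM at ZT14 and 59.4, 58.0 and 62.6 CPM at ZT18, and at only 12.8, 12.2 and 12.9 CPM at ZT22 and 13.7, 17.2 and 13.7 CPM at ZT2 (a log2 difference of 1.93). *Abhd10*, a mitochondrial depalmitoylase, had 47.0 ± 6.28 and 59.5 ± 5.14 CPM and then 12.1 ± 1.35 and 15.6 ± 2.28 CPM (1.95). *Wdr34*, a chain of the dynein that moves cargo within cilia, had 27.2 ± 2.16 and 52.6 ± 19.1 CPM and then 12.1 ± 0.542 and 13.6 ± 0.750 CPM (1.56). For these 3 genes the difference between ZT18 and ZT22 exceeded either difference that the rule selects. That difference lies between clusters, where time and batch cannot be told apart.

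**Figure D4:**
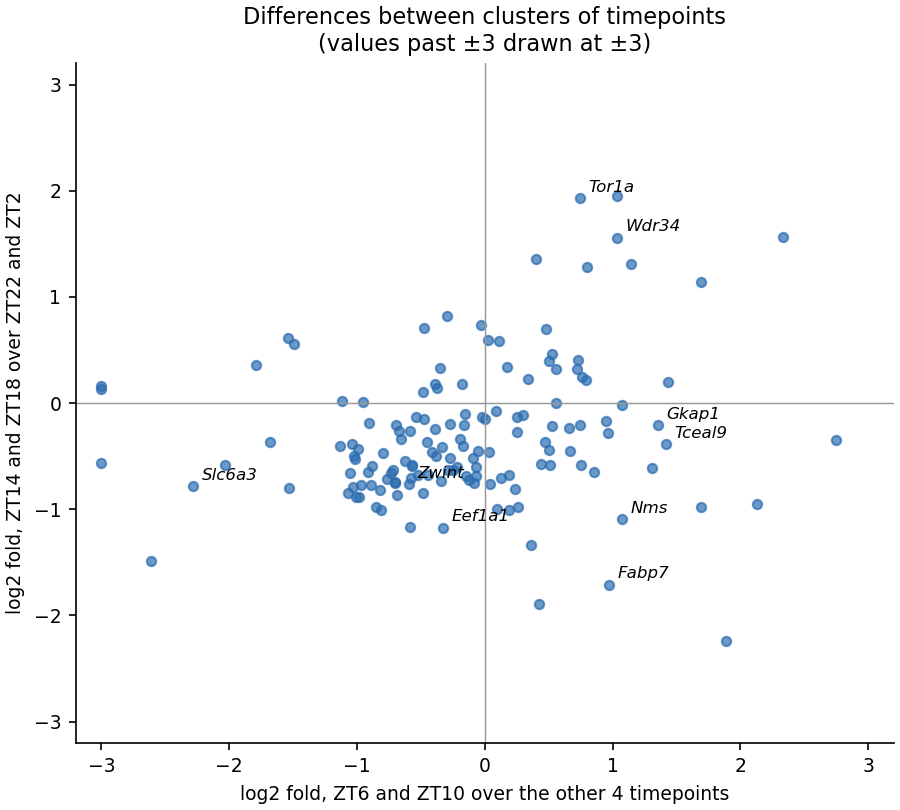
Each of the 144 genes by its log2 fold of ZT6 and ZT10 over the other 4 timepoints (horizontal) and of ZT14 and ZT18 over ZT22 and ZT2 (vertical), with values past ±3 drawn at ±3. *Eef1a1* and *Zwint* lie at lower left, *Nms*, *Tceal9* and *Fabp7* at lower right and *Tor1a* and *Wdr34* at upper right.

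In features that the rule did not use, the medians of the genes differed from those of all tested genes while the ranges overlapped widely. The GC content of the longest annotated transcript had a median of 47.2% over 142 genes (quartiles 43.0% and 51.2%), against 49.7% over 18714 tested genes (45.0% and 54.2%) and 54.5% over the opposite pattern. The coding sequence was also shorter, with a median of 978 bp over 128 protein-coding genes, against 1389 bp over all tested genes and 1542 bp over the opposite pattern. Exon length (3879 bp against 3573 bp in the median) and exon number (6 against 6) differed less. Of the 14049 tested genes with a mean of at least 1 CPM and an annotated transcript, divided into 5 equal groups by GC content, 1.32% of the lowest group (up to 43.9% GC) were members and 0.320% of the highest group (from 55.4%). For the opposite pattern the order was turned around, from 0.214% in the lowest group to 2.78% in the highest.

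GC content also differed between timepoints over the genes as a whole, by the measure of extremes described next. As a measure, the median log2 deviation of genes from their own mean was taken in the lowest of 20 bins by GC content (up to 39.6%) minus the highest (from 59.5%). It lay between -0.64 and -0.63 in the replicates of ZT14 and between -0.42 and -0.15 in those of ZT18, without overlap, and between 0.72 and 0.95 at ZT22 and 0.78 and 1.62 at ZT2, with overlap. The index compares only the 2 extreme bins with each other. The mean GC content of genes weighted by CPM overlapped between ZT14 (48.9% to 49.2%) and ZT18 (48.1% to 49.2%), and between ZT22 (47.9% to 48.4%) and ZT2 (47.4% to 48.3%). When the median deviation of each bin was subtracted per replicate, a step chosen after seeing the data, 138 genes met the rule, of which 87 were among the 132 that met it without the step. Their median GC content was then 49.7%, the same as that of all genes in the step. The opposite pattern fell from 171 to 108 genes and its median GC content from 54.9% to 48.2%. *Nms*, *Eef1a1*, *Zwint*, *Tceal9*, *Fabp7*, *Sfrp2* and *Pgf* still met the rule after the step, whereas, of all genes named here, *Atp6v1g1*, *Pcnp*, *Pipox*, *Gkap1*, *Tor1a*, *Wdr34*, *Dynlt1c*, *Slc25a36*, *Timmdc1*, *Rnf121*, *Zfp286*, *Zfp518a*, *Zbtb33*, *Chpt1*, *Tmem39a* and *Sfxn4* did not. On this log2(CPM + 0.5) scale, the median difference of ZT14 and ZT18 from ZT22 and ZT2 was -0.44 without the step and -0.30 with it over the 132 genes, and -0.05 and -0.09 over all 14049.

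**Figure D5:**
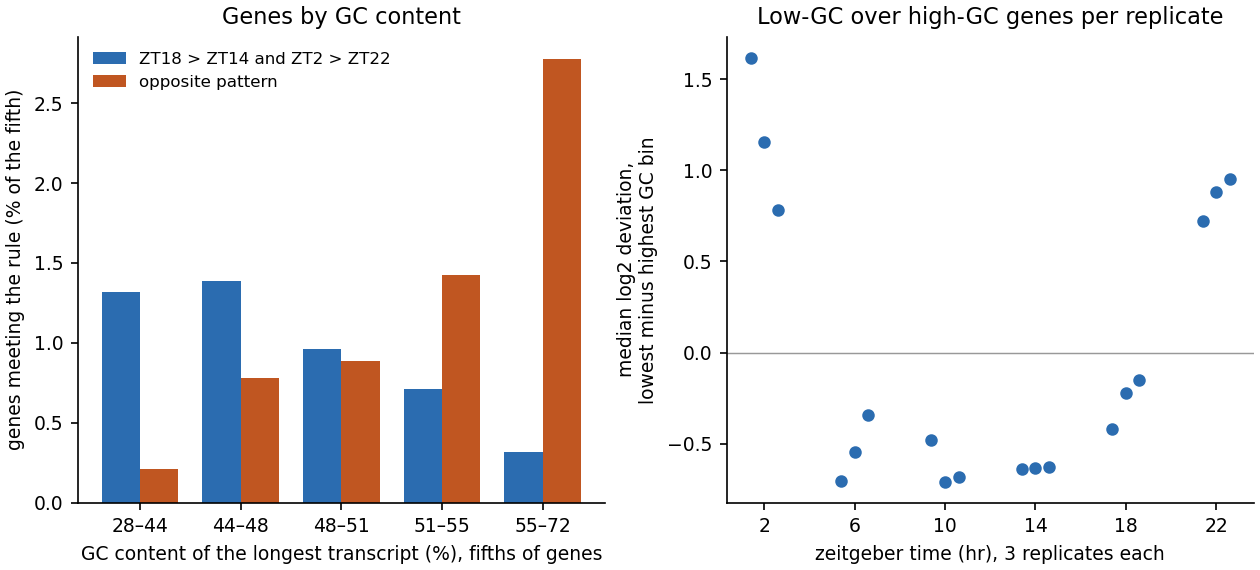
Left, percent of genes that met the rule (blue) or the opposite pattern (orange) in each of 5 equal groups of 14049 genes by GC content of the longest transcript. Right, median log2 deviation of the lowest minus the highest GC bin in each replicate against zeitgeber time in hours. The blue bars fall from 1.32% to 0.320% and the orange ones rise from 0.214% to 2.78%, and the points are positive at ZT2 and ZT22 only.

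Promoter windows (250 bases before to 50 after the start site, RefSeq, GRCm38.p6) were found for 105 of the 144 genes. Each motif was searched on both strands, and a gene counted if any of its windows held it. The cAMP response element TGACGTCA, the site through which CREB acts in light signalling to the SCN, was in the windows of 8 of 105 genes (7.62%), against 3.16% of the 12419 tested genes with a window and 2.17% of the opposite pattern. The shorter site TGACGT, which the full element contains, was in 20 genes (19.05%) against 11.7%. The E-box CACGTG of the clock activators was in 10.5% against 10.8%, the ROR/REV-ERB core AGGTCA in 14.3% against 15.5%, and the D-box TTATGTAA or TTACGTAA in 0 genes, against 0.829% and 0.145%. The NRF1 core GCGCATGC was in 10.5% against 5.14%, the GC box GGGCGG in 67.6% against 63.1%, the ETS site CCGGAA in 32.4% against 26.5%, the CCAAT box in 47.6% against 42.4%, TATAAA in 8.57% against 9.71%, the heat shock core GAANNTTC in 2.86% against 7.23% and the YY1 site AAGATGG in 10.5% against 7.65%. A match is a description of letters and not a bound site.

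The 5 full cAMP response elements that lie before the start site are shown because, of the motifs searched, this one had the highest ratio of its share in these genes to its share in all promoters, a description with no test. The capitals mark the element, and 60 bases are printed 5′ to 3′ on the strand of the gene. The windows are chr10:72654786-72654845 (plus strand) for *Zwint*, chr11:87404518-87404577 (minus strand) for *Rad51c*, chr4:141301161-141301220 (plus strand) for *Epha2*, chr9:97111169-97111228 (minus strand) for *Slc25a36* and chr14:59597973-59598032 (minus strand) for *Cdadc1*.
Zwint: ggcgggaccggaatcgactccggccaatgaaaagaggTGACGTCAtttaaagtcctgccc
Rad51c: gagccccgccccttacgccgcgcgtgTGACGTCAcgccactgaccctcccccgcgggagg
Epha2: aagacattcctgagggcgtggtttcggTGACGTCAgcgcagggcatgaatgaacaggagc
Slc25a36: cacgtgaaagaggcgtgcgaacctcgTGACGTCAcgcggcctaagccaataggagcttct
Cdadc1: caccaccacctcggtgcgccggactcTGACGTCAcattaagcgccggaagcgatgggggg
The element begins 23 bases before the start site in *Zwint*, 45 in *Rad51c*, 33 in *Epha2*, 161 in *Slc25a36* and 47 in *Cdadc1*. *Epha2*, an ephrin receptor, and *Cdadc1*, a deaminase domain protein, were named for their sequence and not by the rule for naming genes. The mean of *Epha2* is under 1 CPM, so its place among the genes rests on values near the floor. In *Gusb*, *Tmem219* and *Tmem39a* the element lies after a start site and is not printed. The promoter of *Nms*, the neuropeptide of the set, holds no E-box, D-box or cAMP response element in its window. Its 200 bases before the start site (chr1:38938949-38939148, plus strand) are shown with 2 CCAAT boxes in capitals, 1 of them read on the other strand and the nearer one beginning 23 bases before the start site.
Nms: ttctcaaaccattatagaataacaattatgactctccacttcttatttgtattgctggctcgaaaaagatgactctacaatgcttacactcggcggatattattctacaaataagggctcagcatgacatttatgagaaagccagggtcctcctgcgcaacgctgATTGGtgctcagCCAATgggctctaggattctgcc

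Of the 144 genes, 128 are protein coding and the rest are 6 processed transcripts, 5 pseudogenes, 3 antisense RNAs, 1 snRNA and 1 gene that the annotation does not hold. They lie on many chromosomes, with 9 on the X (6.29%, against 4.69% of tested genes), and 3 pairs of neighbours are within 100 kb: *Timmdc1* and *Tmem39a* (36035 bp apart on chromosome 16), *Fam45a* and *Sfxn4* (1050 bp, chromosome 19) and *Galk2* and *Fgf7* (50359 bp, chromosome 2). Exons of 59 overlap those of a gene on the other strand and exons of 14 those of a gene on the same strand, and since strand is not stated for the counting, reads of such partners cannot be told apart.

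The edge of the rule is fine. *Zbtb33*, *Chpt1* and *Rab36* were just inside, with log2 gaps between the nearest replicates of ZT2 and ZT22 of 3.31e-05, 4.55e-05 and 0.00013. *Uty*, with 26.1 CPM in both the lowest ZT18 and the highest ZT14 replicate, *Dynlt1b* (35.9 CPM at ZT2 against 35.98 at ZT22) and *Rbbp9* (76.3 CPM at ZT18 against 76.5 at ZT14) were just outside. Other scalings of the libraries moved the edge, as 138 of the 144 genes met the rule with DESeq2's size factors, 124 with upper-quartile normalization and 97 with library totals alone, and 89 met it under all 4 scalings. Genes not among these 89 include *Nms*, *Tceal9*, *Atp6v1g1*, *Pcnp*, *Pipox*, *Pgf*, *Wdr34*, *Dynlt1c*, *Pold4*, *Xrcc2*, *Chpt1* and *Rab36*. This list does not cover all genes named here. With at least 10 counts in every replicate, 121 of the genes remained in the table and 111 of these met the rule.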

How the data were processed

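RNA was amplified from laser-captured SCN and sequenced in 54 lane samples (18 replicates, 3 lanes each). After trimming and quality filtering, the authors mapped reads to mm10/GRCm38 by GSNAP and obtained counts per Ensembl gene from HTSeq 0.5.4p1; use of strand is not given in the sources used here. The deposited count table holds whole-number read counts for 30031 genes, without normalization and with lanes combined. A second deposited table holds normalized signal for 31077 genes, the counts divided by 1 size factor per replicate, from which whole reads were recovered (100% of values were whole multiples of 1 step) as an alternative. No column was left unused (0). The fit over all tested genes used edgeR 4.0.16 in R 4.3.3 with a mean per timepoint, and 3 contrasts, orthogonal in the means to the differences of the rule, were fitted with the quasi-likelihood test, Benjamini–Hochberg adjusted over 18941 genes. ZT6 against ZT10 alone compares only replicates that the rule did not use, and all 3 share 1 estimate of the spread with the rule's replicates. DESeq2 1.42.0, other scalings and filters, a replicate block, leaving out each replicate and a GC step served as alternatives. The fit was tested on simulated counts for the contrast of ZT6 with ZT10 only. The other steps were run in Python 3.11.15 with pandas 2.3.3.

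The members and lists were chosen with earlier results of these data known, so no list is independent evidence. The genes named were the 10 with the largest lesser log2 ratio and at least 5 CPM, the 8 of highest level, those with the largest differences in each contrast, list members and the genes at the edge of the rule. Of these, 1 gene is not reported here. Positions and transcripts come from GENCODE M21 (GRCm38), which matched 143 of the 144 genes and 98.8% of tested genes. Replicates of a timepoint differed by more than sampling noise.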

Additional observations from a re-analysis of the deposited data

Results flagged for a closer look

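The second table lists 4959 genes that the count table does not hold. On the reads recovered from it, 2171 of these passed the filter and 21 met the same rule (0.967%, against 0.760% of the genes tested in the count table). This signal lies outside the table used above, which is why it is given here. The most abundant with a symbol were *Tmem255a* at 215.6 CPM, *Nadk2* at 60.4 CPM, *Ap5s1* at 54.5 CPM and *D230017M19Rik* at 14.5 CPM in the mean of the 18 replicates, named after their values were seen. *Tmem255a* shares 474 exonic bases with the member *Zbtb33* on the other strand. These genes were not in the comparisons above.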

How the results depend on the processing

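The number of genes that met the rule was 144 and lay between 110 and 159 under other scalings, filters and the recovered reads, and at 138 with the GC step. Leaving out 1 of the 12 replicates of the rule left 1 value fewer to separate and gave between 177 and 308 genes, with 308 without ZT2 replicate C, 256 without ZT2 replicate B, 271 without ZT18 replicate C and 246 without ZT22 replicate A. Between ZT6 and ZT10, DESeq2 in place of edgeR called 4 members higher and 1 lower (0.47% and 1.01% of all genes with an adjusted p), where the other settings called 0. For ZT6 and ZT10 against the other 4 timepoints, leaving out single replicates gave 30 to 34 genes higher and 48 to 55 lower. For ZT14 and ZT18 against ZT22 and ZT2 it gave 13 to 16 higher and 50 to 66 lower. The comparison of ZT14 and ZT18 rests wholly on the replicates that chose the genes, so nothing is read from its counts. That of ZT6 and ZT10 includes these replicates too. With the replicate block the counts were 29 and 52 for ZT6 and ZT10, and 16 and 57 for ZT14 and ZT18. For ZT14 and ZT18, the scalings gave 13 higher and 70 lower (DESeq2's size factors) and 11 and 74 (upper-quartile normalization). DESeq2 in place of edgeR gave 15 and 73. The letters did not pair the samples, since the correlation of deviations between samples of the same letter lay between -0.19 and 0.10. The 23 results for named genes changed no direction in 573 alternatives. On the reads recovered from the second table, *Eef1a1* lost its call for ZT6 and ZT10 (-0.10) and *Dnajc12* gained one (0.32), and the cause was not tested. Between the tables, 112 of 143 members had the same reads at ZT2, ZT14, ZT18 and ZT22, and 8 differed over 2 times in their summed reads of ZT6 and ZT10. With 3 pools per timepoint small differences may have been missed, above all in the 12 members under 1 CPM. The smallest detectable difference is not given here.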
